A study of Drosophila melanogaster with 6 samples.

Results

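The prolyl 4-hydroxylase alpha (PH4alpha) genes of Drosophila melanogaster encode catalytic subunits, and relatives of them, of the enzyme that hydroxylates prolines of collagen and of other secreted proteins in the endoplasmic reticulum (ER). The members were the 8 genes PH4alphaEFB, PH4alphaMP, PH4alphaNE1, PH4alphaNE2, PH4alphaNE3, PH4alphaPV, PH4alphaSG1 and PH4alphaSG2, taken by symbol from the annotation of the array. The family was chosen with earlier results of these data known. They are 8 of 11982 genes with a probe set of their own, and each had 1 of the 18769 probe sets tested. RNA came from whole embryos in 2 groups of 3 arrays each. CrebA null mutant embryos, which lack the bZIP transcription factor CrebA, carried no GFP-marked balancer chromosome and were picked for that on a COPAS biosorter, a flow sorter for objects of embryo size. Wild type embryos passed through the same instrument. All embryos came from collections of 8 h that were aged for 11 h more, and the labels start them at stage 11 and end them at stage 15 in one field and at stage 17 in another. The groups share no other allele or agent in the labels, and nothing says whether the 3 replicates of a genotype came from separate embryo collections. The p-values therefore cover the spread between these arrays alone, and that spread may be technical.

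The active enzyme is a tetramer in which alpha subunits carry the hydroxylase site and protein disulfide isomerase serves as the beta subunit. The reaction uses iron, oxygen, 2-oxoglutarate and ascorbate, and hydroxyproline stabilises the collagen triple helix. Flies hold many alpha-like genes, most of them clustered on 1 chromosome arm, and the symbols recall where each was first seen in embryos. SG stands for the salivary gland, EFB for epidermis and fat body, MP for mouthparts, PV for the proventriculus (a valve at the entry to the midgut) and NE for no embryonic expression. CrebA is known for its part in the expression of secretory pathway genes in embryonic salivary glands and other secretory tissues.

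Values are RMA expression values (a background-corrected, quantile-normalised summary of the probes of a gene) on a log2 scale, on which a difference of 1 is a doubling. The mean over probe sets was 6.39 on every array, and precision is limited by there being 3 arrays a genotype. The replicate 2 arrays stood apart in both genotypes, with scores on the first principal component (53.5% of the variance) of 20.1 for the mutant and 53.5 for the wild type array, against -36.8 to -3.20 for the other arrays. CrebA itself was not among the named probe sets, which left the genotype labels unchecked by the mutated gene. Changes are CrebA null mutant minus wild type, tested with limma and adjusted by the Benjamini-Hochberg method over all 18769 probe sets. Calls were made where the adjusted p lay under 0.05. The same fit was run with the replicate number as a block, and its adjusted p is given where it changes a call.

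PH4alphaSG1, PH4alphaMP and PH4alphaPV were lower on all 3 mutant arrays than on any wild type array. The means were 1.54-fold lower for PH4alphaSG1 and 1.40-fold lower for PH4alphaPV. For PH4alphaMP the estimate was 1.36-fold or more, as its mutant values lay under the brightest control for sequences that flies lack. None of the 8 members was called in the fit on genotype alone, either way, and 3 had an unadjusted p under 0.05. With the replicate block these 3 fell and 0 rose. Over all probe sets, 0.911% fell and 1.42% rose in the fit on genotype alone (2.33% either way), and 7.15% fell and 9.53% rose with the block. Without overlap between genotypes, 10.2% of all probe sets were lower and 8.71% higher, against 3 and 0 of the members. The median change of the 8 members was -0.17, against -0.03 over all probe sets. Of the 8 changes 7 were negative, as were 57.7% of all changes.

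The array also carries 17 Tag control probe sets made for sequences that flies lack, and the brightest of them on each array marks the level that can arise without a matching transcript. That level lay between 4.71 and 4.93 on the mutant arrays and between 4.81 and 5.28 on the wild type arrays. PH4alphaSG1, PH4alphaSG2, PH4alphaEFB, PH4alphaPV and PH4alphaNE1 exceeded it on all 6 arrays. PH4alphaMP exceeded it on the 3 wild type arrays and on 0 of the 3 mutant arrays. PH4alphaNE2 and PH4alphaNE3 lay at or below it on all 6 arrays. Probe sets differ in how strongly they bind, so the members' levels are not ranked against each other.

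**Figure D1:**
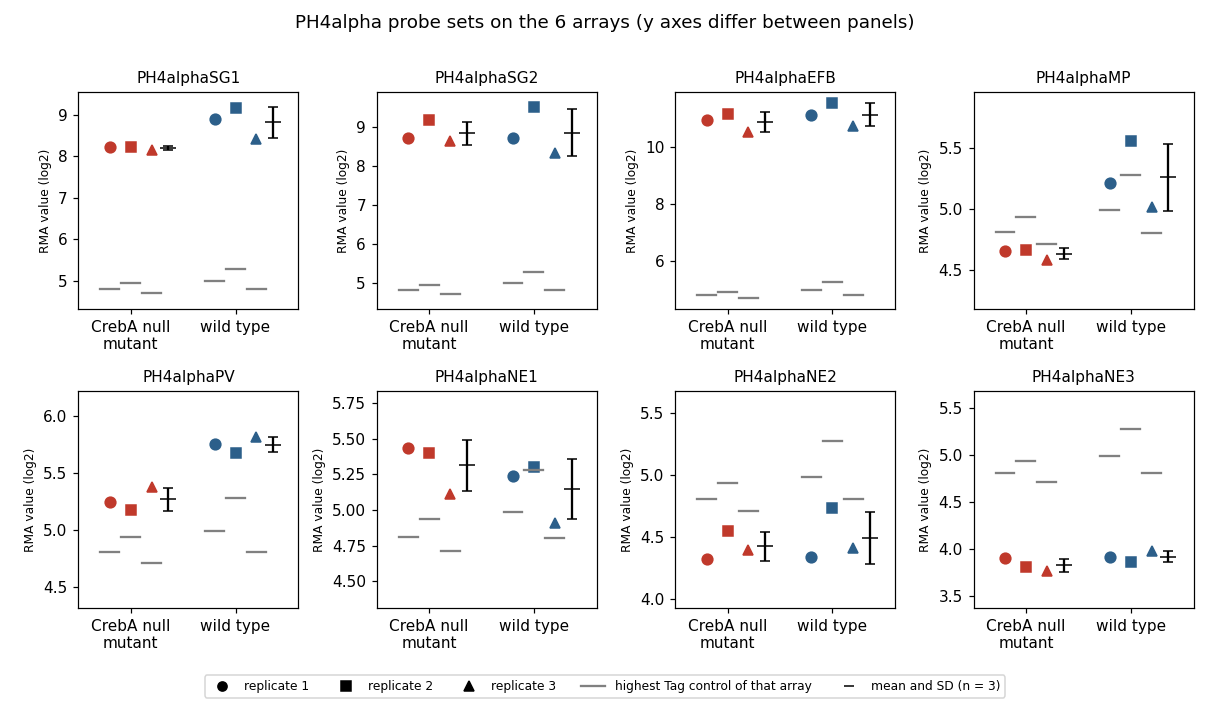
RMA values (log2) of the 8 PH4alpha probe sets, with 1 panel per gene and 1 point per array, the 3 CrebA null mutant arrays at left and the 3 wild type arrays at right. Grey bars give the brightest of the 17 Tag controls on each array, and black marks the mean and SD of each genotype. The genotypes do not overlap for PH4alphaSG1, PH4alphaMP and PH4alphaPV, and all points of PH4alphaNE2 and PH4alphaNE3 lie under the grey bars.

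Both members named for the salivary gland were well above the Tag controls, and the genotypes separated in PH4alphaSG1 and overlapped in PH4alphaSG2. PH4alphaSG1 had values of 8.22, 8.24 and 8.16 in mutant replicates 1, 2 and 3, against 8.90, 9.16 and 8.42 in wild type replicates 1, 2 and 3. The mutant values lay within a narrow band below the lowest wild type value, and the wild type values spread far more, with SDs of 0.04 in mutants and 0.37 in wild type (n = 3 each). The change was -0.62 (SE 0.19, 95% confidence interval -1.08 to -0.16), which is 1.54-fold lower, with a limma adjusted p of 0.192 on genotype alone and of 0.0268 with the replicate block. Between arrays of the same number the difference was -0.69, -0.92 and -0.26 for replicates 1, 2 and 3. Without both replicate 2 arrays the change was -0.47, with an adjusted p of 0.0809 under the block.

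PH4alphaSG2, which lies near PH4alphaSG1 on the chromosome, had values of 8.72, 9.18 and 8.64 in mutant replicates 1, 2 and 3, against 8.73, 9.51 and 8.33 in wild type replicates 1, 2 and 3. The genotypes overlapped fully, and replicate 2 was the highest array of each genotype. Its change was -0.01 (SE 0.32, limma adjusted p 0.995), with a 95% confidence interval of -0.79 to 0.77 on genotype alone and of -0.32 to 0.30 with the block. The sign of this change turned without both replicate 2 arrays (0.15) and under 3 settings of scaling or array weights. The interval on genotype alone takes in the change of PH4alphaSG1, and the interval with the block does not. The interval of PH4alphaSG1 with the block was -0.95 to -0.30, so the block intervals of the 2 genes overlap.

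The ratio of the 2 genes within each array bears on whether they changed unequally, a comparison chosen after the values were seen. PH4alphaSG1 minus PH4alphaSG2 was -0.51, -0.95 and -0.47 in mutant replicates 1, 2 and 3, against 0.17, -0.35 and 0.10 in wild type replicates 1, 2 and 3 (log2 difference between probe sets, of no meaning as an absolute level). Every mutant value lay below every wild type value. The mean was -0.64 ± 0.27 in mutants and -0.03 ± 0.28 in wild type (SD, n = 3 each), a difference of -0.61. An exact two-sided permutation test over the 20 regroupings of the arrays gave p = 0.10, the smallest that 3 against 3 arrays can give. Between arrays of the same number, mutant minus wild type was -0.67, -0.60 and -0.57 for replicates 1, 2 and 3. An exact two-sided sign-flip permutation test over these 3 pairs gave p = 0.25, again the smallest possible, so neither test could pass 0.05.

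Genes of the embryonic salivary gland are set beside PH4alphaSG1 as markers of that tissue. Of 15 listed salivary gland genes, such as the transcription factor genes fkh, sage and hkb, 1 fell, 0 rose and 14 had negative changes (median change -0.33, against -0.02 over all genes with 1 probe set each, of which 1.02% fell and 1.90% rose). The gene that fell was CG14756, with 11.47 ± 0.31 in mutants and 13.16 ± 0.18 in wild type (SD, n = 3 each), a change of -1.69 (SE 0.18, limma adjusted p 0.0149). This call was lost without mutant replicate 1 (adjusted p 0.0945), mutant replicate 3 (0.0575) or wild type replicate 1 (0.0877). The brightest probe set of pip, which encodes a sulfotransferase, was not called (change -0.33, SE 0.27), while 3 of the 10 probe sets of pip fell and 0 rose. With the block 8 of the 15 genes fell and 0 rose, against 9.21% of all genes fallen and 12.6% risen. The block without replicate 2 gave 5 fallen genes, and the fit on genotype alone without them gave 3.

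The levels of the 15 genes, summed on the linear scale, ran from 33039 to 38931 on mutant arrays and from 46375 to 54690 on wild type arrays. Such a sum is mostly that of the brightest genes, here nur, CG13159 and CG14756 (wild type means 13.93, 13.90 and 13.16). Of the 15 genes 6 were lower without overlap, as were 10.2% of all probe sets. Among these 6 were sage (-0.97, SE 0.18, limma adjusted p 0.0570, and 0.00266 with the block) and eyg (-0.43, SE 0.11, 0.127, and 0.0423 with the block). The genotypes overlapped in fkh, hkb, Scr and sens, of which sens fell with the block (limma adjusted p 0.0331). All 15 exceeded the Tag controls on all 6 arrays. Their part in the change of PH4alphaSG1 was not tested, and in whole embryos fewer cells of a type and less RNA per cell cannot be told apart.

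PH4alphaEFB, the member named for epidermis and fat body, had values of 10.96, 11.18 and 10.52 in mutant replicates 1, 2 and 3, against 11.13, 11.54 and 10.74 in wild type replicates 1, 2 and 3. The genotypes overlapped, but within each replicate number the mutant was the lower array, with differences of -0.16, -0.36 and -0.22 for replicates 1, 2 and 3. The change was -0.25 (SE 0.25, limma adjusted p 0.789), with a 95% confidence interval of -0.87 to 0.37. With the block the interval was -0.44 to -0.06, and the adjusted p of 0.0868 did not pass the threshold.

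Among 8 measured genes of the fat body list 1 fell and 0 rose, and 3 fell with the block (0 and 2 without replicate 2). Over all genes 1.02% fell, and 9.21% with the block. Lower without overlap were 3 of the 8 (Mtp, svp and Fbp1), as were 10.2% of all probe sets. Negative changes were seen in 6, with a median of -0.28, against -0.02 over all genes. The fallen gene was Mtp, a lipid transfer protein gene that acts in lipoprotein assembly, with a change of -1.04 (SE 0.18, limma adjusted p 0.0493), a call that was lost whichever single array was left out (adjusted p 0.0773 to 0.175). The summed level of the list ran from 6919 to 14076 on mutant arrays and from 6432 to 16901 on wild type arrays, so the genotypes overlapped. That sum is mostly apolpp, the brightest gene (means 13.03 in mutants and 12.91 in wild type). Replicate 2 was its lowest array in both genotypes. Of the 8 genes, 7 exceeded the Tag controls on all 6 arrays.

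PH4alphaMP, the mouthpart member, had values of 4.66, 4.66 and 4.58 in mutant replicates 1, 2 and 3, against 5.21, 5.55 and 5.01 in wild type replicates 1, 2 and 3. Every mutant array lay below every wild type array and below its own brightest Tag control, so the mutant level is only bounded from above. With the mutant arrays set at those controls, the mean was 1.36-fold lower in mutants (measured means 4.63 ± 0.05 and 5.26 ± 0.28, SD, n = 3 each). This bound on the means leaves out their spread. The wild type arrays stood little above their own brightest Tag controls, which were 4.99, 5.28 and 4.81 for replicates 1, 2 and 3. The fitted change was -0.62 (SE 0.15), with a limma adjusted p of 0.106 on genotype alone, of 0.0125 with the block and of 0.0314 with the block and without replicate 2. The gene overlaps PH4alphaSG2 at its edge in the RefSeq annotation, and the 2 probe sets correlated with r of 0.44 over the 6 arrays.

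The list of 9 mouthpart and epidermis genes had 0 genes called by limma (2 at an unadjusted p under 0.05) and a median change of -0.04. With the block Dfd, a Hox gene of the mouthpart segments, fell (-0.61, SE 0.10 in that fit, limma adjusted p 0.00984, and 0.0364 without replicate 2). Ddc, the dopa decarboxylase gene of the cuticle, rose with the block (1.27, SE 0.11 in that fit, limma adjusted p 0.00160). Without replicate 2 the fit on genotype alone called Ddc. The summed level of the list ran from 10104 to 12576 on mutant arrays and from 10465 to 12306 on wild type arrays, and all 9 genes exceeded the Tag controls on all 6 arrays. The 3 brightest were the chitin deacetylase genes serp (-0.04, SE 0.11) and verm (0.09, SE 0.11) and the chitin synthase gene kkv (0.20, SE 0.07).

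PH4alphaPV, named for the proventriculus, separated the genotypes as well, with SDs of 0.10 in mutants and 0.07 in wild type (n = 3 each). It had values of 5.24, 5.18 and 5.38 in mutant replicates 1, 2 and 3, against 5.75, 5.68 and 5.82 in wild type replicates 1, 2 and 3. All values exceeded the Tag controls, and the lowest wild type array lay above the highest mutant array. The probe set was dim, with mutant values under the medians of those arrays (5.54 to 5.60). In replicate 2 it had 5.18 against a brightest Tag control of 4.93 in mutants, and 5.68 against 5.28 in wild type. The change was -0.48 (SE 0.09, 95% confidence interval -0.70 to -0.26), or 1.40-fold lower in mutants. Its limma adjusted p was 0.0575 on genotype alone, the closest of the members to the threshold, and 0.00750 with the block. It was called after quantile normalization (adjusted p 0.0353) and after centring each array on its median (0.0404). It was not called when any 1 array was left out, nor after centring on ribosomal protein and proteasome genes. Without both replicate 2 arrays its limma adjusted p was 0.0633 on genotype alone and 0.0326 with the block.

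Of 6 measured genes of the foregut and proventriculus 0 were called by limma with or without the block (0 at an unadjusted p under 0.05 on genotype alone), and the median change was -0.05. The 3 brightest were the patterning genes bowl (0.03, SE 0.19), drm (-0.22, SE 0.22) and dve (-0.03, SE 0.15). Their summed level ran from 1942 to 2466 on mutant arrays and from 2162 to 2675 on wild type arrays, and all 6 exceeded the Tag controls on every array.

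Of the 3 members named for no embryonic expression, PH4alphaNE1 lay under the array medians of 5.48 to 5.60, and the other two lay within the range of the Tag controls. PH4alphaNE1 had values of 5.43, 5.40 and 5.11 in mutant replicates 1, 2 and 3, against 5.24, 5.30 and 4.91 in wild type replicates 1, 2 and 3. It was just above the Tag controls on every array, in wild type replicate 2 by 5.30 against 5.28, and was the 1 member with a positive change (0.16, SE 0.15, limma adjusted p 0.753). In each replicate number the mutant was higher, by 0.10 to 0.20, and the genotypes overlapped. PH4alphaNE2 ranged from 4.32 to 4.55 in mutants and from 4.34 to 4.73 in wild type. PH4alphaNE3 ranged from 3.77 to 3.90 in mutants and from 3.86 to 3.98 in wild type. Both were not above the controls on any array, and no fold is given for them.

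**Figure D2:**
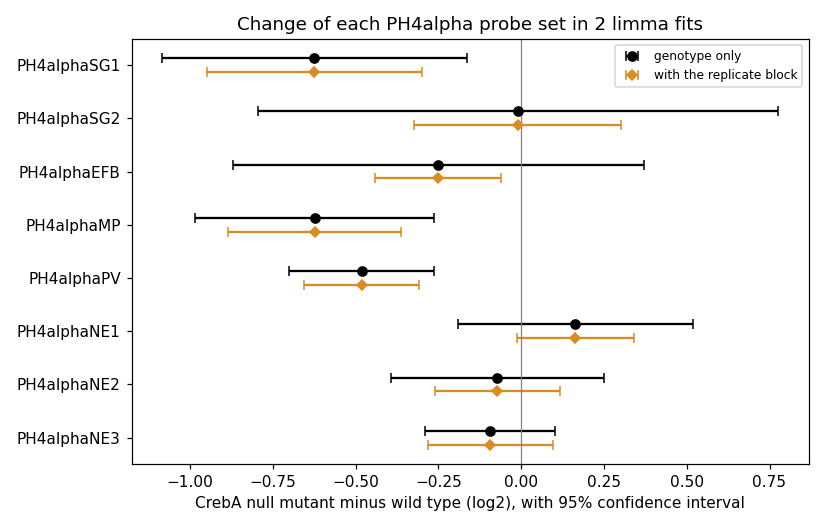
Change of each PH4alpha probe set, CrebA null mutant minus wild type (log2), with 95% confidence intervals from limma on genotype alone (black circles) and with the replicate number as a block (orange diamonds). The intervals of PH4alphaSG1, PH4alphaMP and PH4alphaPV lie below 0 in both fits, that of PH4alphaEFB only with the block, and that of PH4alphaSG2 is the widest on genotype alone (-0.79 to 0.77).

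Correlations between members are given as a description. Over the 6 arrays PH4alphaSG1 and PH4alphaMP correlated with r of 0.98, although the 3 mutant values of PH4alphaMP lay below the Tag controls. The r was 0.85 for PH4alphaSG2 and PH4alphaEFB and 0.51 for PH4alphaSG1 and PH4alphaSG2. These values describe 6 arrays that share the split of replicate 2 from the others as well as the genotypes. Other genes followed the members as closely or more so. For PH4alphaSG1 the 3 most alike of 13639 other probe sets were those of CG13157 (r 0.994), CG11052 (0.994) and 1 probe set of bin, a visceral mesoderm factor gene (0.993). For PH4alphaEFB they were the carbonic anhydrase gene CAH4 (0.997), CG34007 (0.994) and CG5080 (0.994), with CAH4 under the Tag controls throughout. For PH4alphaSG2 they were the endosomal GTPase gene Rab21 (0.998), CG5500 (0.996) and the organic cation transporter gene Orct2 (0.996). An r over 0.95 was reached by 128 probe sets for PH4alphaSG1, 266 for PH4alphaEFB and 340 for PH4alphaSG2.

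All 8 members lie on chromosome arm 3R, in a stretch of 35 annotated genes from PH4alphaEFB to PH4alphaPV. Members were taken by symbol, and whether any other gene there, CG9698 included, is alpha-like was not searched. Of the 27 other genes in this stretch 17 were measured, and among them 2 fell and 1 rose, where 1.02% of all genes fell and 1.90% rose. With the block 3 fell and 3 rose, where 9.21% of all genes fell and 12.6% rose. CG9698 had 5.07, 5.29 and 4.78 in mutant replicates 1, 2 and 3, against 6.68, 6.77 and 6.19 in wild type replicates 1, 2 and 3. Every mutant array was lower than every wild type array, and the gene fell 2.83-fold (change -1.50, SE 0.20, limma adjusted p 0.0252). The call was lost without mutant replicate 1 (adjusted p 0.118), mutant replicate 3 (0.0865), wild type replicate 1 (0.127) or wild type replicate 2 (0.0560).

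The other called neighbours moved in opposite directions. The gene spdo, which acts in Notch signalling during asymmetric cell division and overlaps PH4alphaEFB in the annotation, had 6.73 ± 0.12 in mutants and 7.60 ± 0.25 in wild type (SD, n = 3 each). Its change was -0.87 (SE 0.15, limma adjusted p 0.0452), and the call was lost without any single array other than wild type replicate 3 (adjusted p 0.0895 to 0.187). The gene jdp rose by 0.96 (SE 0.09, adjusted p 0.0114) in its brightest probe set, with 1.04 (adjusted p 0.0630) and -0.07 (adjusted p 0.877) in the other two. Its call was lost without mutant replicate 1 (0.0672), mutant replicate 3 (0.0556) or wild type replicate 1 (0.0622).

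Among the neighbours, 4 measured genes carry an older gene number in RefSeq that a member also carries. CG31371, which shares its number with PH4alphaSG1, had 5.58, 5.88 and 5.32 in mutant replicates 1, 2 and 3, against 6.21, 6.92 and 5.85 in wild type replicates 1, 2 and 3. The genotypes overlapped slightly, and the change of -0.73 (SE 0.29) had a limma adjusted p of 0.343 on genotype alone and of 0.00958 with the block. CG31021 and CG31016, which share a number with PH4alphaNE3, were under the Tag controls on all 6 arrays as PH4alphaNE3 was. CG31013, which shares a number with PH4alphaPV, had a change of 0.06 (SE 0.10, adjusted p 0.902).

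**Figure D3:**
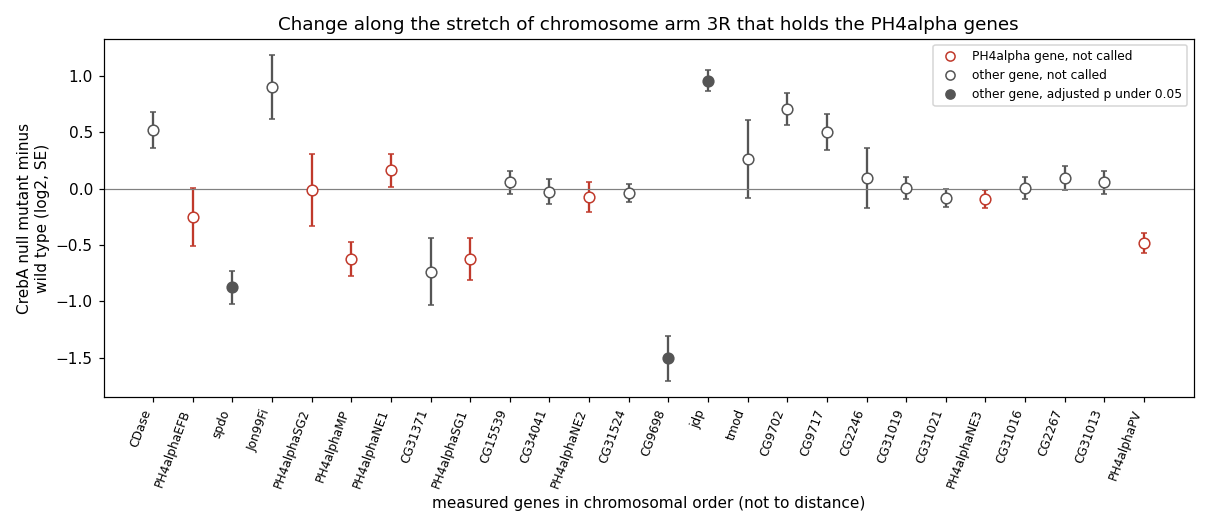
Change (CrebA null mutant minus wild type, log2, with SE) of each measured gene along chromosome arm 3R from the gene before PH4alphaEFB to PH4alphaPV, in chromosomal order but not to distance. PH4alpha genes are red and other genes grey, and filled points passed an adjusted p of 0.05. Only spdo and CG9698, which fell, and jdp, which rose, are filled, and CG9698 shows the largest change plotted (-1.50).

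The alpha subunits act in the ER beside their beta subunit and other collagen-folding proteins. Of 8 genes for collagen hydroxylation and folding 0 were called by limma (3 at an unadjusted p under 0.05), 7 had negative changes (as had 57.7% of all probe sets) and the median was -0.37. With the block 5 fell (ERp60, prtp, CaBP1, Tango1 and Pdi) and CG31915 rose, against 9.21% of all genes fallen and 12.6% risen in that fit. Without replicate 2 the block gave 3 fallen and 1 risen, and the fit on genotype alone called 1, which rose. The 3 brightest were the ER prolyl isomerase gene Fkbp14 (-0.14, SE 0.10), the disulfide isomerase gene ERp60 (-0.38, SE 0.08) and prtp, which encodes a thioredoxin-domain protein (-0.36, SE 0.19).

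Pdi and Plod are given as well, since they encode the beta subunit and the lysyl counterpart of the enzyme. Pdi had 5.24 ± 0.10 in mutants and 5.73 ± 0.24 in wild type (SD, n = 3 each), with no overlap. This 1 probe set was dim, at 5.13 to 5.33 on mutant arrays. The medians of those arrays were 5.54 to 5.60 and their brightest Tag controls 4.71 to 4.93. Its change was -0.49 (SE 0.14), with a limma adjusted p of 0.176 on genotype alone and of 0.0136 with the block, a call that was lost with the block and without replicate 2 (0.0516). Plod, the lysyl hydroxylase gene, had 11.26 ± 0.07 in mutants and 11.30 ± 0.07 in wild type, and its change was -0.04 (SE 0.08, limma adjusted p 0.914).

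The collagen genes themselves, whose products are the textbook substrates, had changes of the opposite sign, none of them called on genotype alone. Of 5 genes for collagens and their partners 0 were called by limma (1 at an unadjusted p under 0.05). All 5 changes were positive (median 0.33), where 57.7% of all changes were negative. The type IV collagen genes Col4a1 and vkg had changes of 0.33 (SE 0.20) and 0.24 (SE 0.23), and the collagen-binding gene SPARC one of 0.19 (SE 0.10). Neither type IV collagen gene was called with the block (limma adjusted p 0.0539 and 0.0941). With the block 2 rose, Mp (0.80, a multiplexin collagen) and Pxn (0.46, peroxidasin, which cross-links type IV collagen), where 12.6% of all genes rose. Of 7 other basement membrane genes 0 were called by limma (0 at an unadjusted p under 0.05), and trol, which encodes perlecan, rose with the block. The 3 brightest were the laminin genes LanB2 (-0.28, SE 0.21) and LanA (-0.16, SE 0.60) and papilin, Ppn (0.03, SE 0.27).

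Haemocytes are a main source of collagen in the fly embryo. Of 8 haemocyte genes 0 were called by limma with or without the block (1 at an unadjusted p under 0.05 on genotype alone), and the median change was -0.07. Without replicate 2, 1 was called under either fit. It was lz, which lay under the Tag controls on all 6 arrays, so its change could not be measured. The brightest were crq (-0.12, SE 0.16), Sr-CI (-0.17, SE 0.26) and NimC1 (0.07, SE 0.13). Of these 8 genes 3 exceeded the Tag controls on all 6 arrays, and the summed level of all 8 ran from 342 to 434 on mutant arrays and from 379 to 429 on wild type arrays. Of 6 measured genes for other oxygenases that use 2-oxoglutarate 0 were called by limma (1 at an unadjusted p under 0.05). JMJD4 fell with the block (-0.28, SE 0.07 in that fit) but not once replicate 2 was left out. Hph, the prolyl hydroxylase that acts on the hypoxia factor in the cell, had a change of -0.20 (SE 0.58), and NO66 one of 0.07 (SE 0.22).

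**Figure D4:**
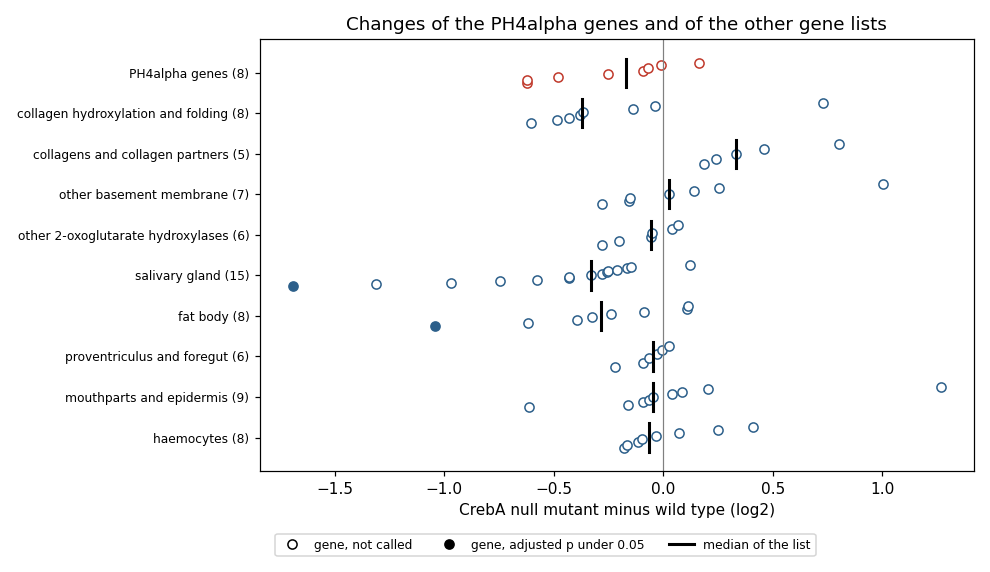
Change (CrebA null mutant minus wild type, log2) of each PH4alpha gene and of each gene of the 9 lists, with 1 probe set per gene, the number of measured genes in brackets and black bars at the list medians. Filled points passed an adjusted p of 0.05, which 1 salivary gland gene (CG14756) and 1 fat body gene (Mtp) did. The median was -0.17 for the PH4alpha genes and 0.33 for the collagens and their partners.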

How the data were processed

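Total RNA of 3 CrebA null mutant and 3 wild type embryo samples was measured on Affymetrix Drosophila Genome 2.0 arrays. The values deposited by the authors are log2 RMA summaries, 1 per probe set and array, with the log base inferred from their range. RMA and Partek were used, per the submitters' processing notes, and their order, versions and filters are not stated there. RMA scales the arrays to each other, so changes are relative to the other genes of the array. The array medians still differed, from 5.54 to 5.60 on mutant arrays and from 5.48 to 5.53 on wild type arrays.

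Of 18769 probe sets, leaving out 183 controls, 13647 had 1 gene symbol in the platform annotation, 402 several and 4720 none. Gene order came from RefSeq Release 6, whose coordinates are not printed because no source here names the array's build. The members and lists were chosen with earlier results of these data known. Models were fitted with limma 3.58.1 (lmFit, then eBayes; R 4.3.3; two-sided) and the code was tested on simulated data. For the 9 lists (75 symbols, 72 matched), a gene was represented by its probe set with the highest mean, and the text names the called members, or otherwise the 3 brightest, with any further ones chosen after their values were seen. Genes most alike were ranked by Pearson r. Members at or below the brightest Tag control on every array of a genotype were given as a bound. Plots used python 3.11.15 and its matplotlib 3.10.9.

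The titles give the same replicate numbers to both genotypes. Over probe sets, what each array deviated by from its genotype mean correlated with r of 0.639, 0.852 and 0.563 between mutant and wild type arrays of numbers 1, 2 and 3. All exceeded the bar of 0.1 for treating the numbers as pairs. Mutant 3 with wild type 1 (0.566) and mutant 1 with wild type 3 (0.371) did so as well. As replicate 2 stood apart in both genotypes, the bar could hardly tell replicates 1 and 3 apart, so how these pair is not settled. Alternatives covered the block, single arrays, dim probe sets, scaling, variance models, array weights, the threshold and the choice of probe set, and 2 that leave out both replicate 2 arrays were added after seeing the data.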

Additional observations from a re-analysis of the deposited data

How the results depend on the processing

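With the replicate block 3 PH4alpha probe sets fell, and 1342 of all probe sets fell and 1788 rose. Array weights gave 3 fallen members (PH4alphaSG1, PH4alphaMP and PH4alphaPV, the same 3 as with the block), with 1109 fallen and 1335 risen probe sets. Quantile normalization gave 1 fallen member and centring on the array median also gave 1, as did a threshold of 0.10 (359 fallen, 535 risen), each time PH4alphaPV. Centring on ribosomal protein and proteasome genes gave 0 members, 73 fallen and 84 risen. Without both replicate 2 arrays 0 members were called (424 fallen, 581 risen), and the block then gave 2 members, PH4alphaMP and PH4alphaPV (902 fallen, 1415 risen). Without 1 array 0 members were called each time, with between 15 fallen (without CrebA null mutant replicate 1) and 121 (without wild type replicate 2), and between 23 risen (without wild type replicate 1) and 159 (without wild type replicate 2). The cause of these shifts was not tested. No member rose under any of the 19 alternatives. The changes of PH4alphaSG1, PH4alphaMP, PH4alphaPV, PH4alphaEFB and PH4alphaNE3 stayed negative in every alternative that tested them, and that of PH4alphaNE1 positive. PH4alphaSG2 turned positive under quantile normalization (0.017), ribosomal and proteasome centring (0.047), array weights (0.034) and without both replicate 2 arrays, with or without the block (0.15). Without 1 array it ranged from -0.28 to 0.32, and PH4alphaNE2 from -0.15 to 0.048.

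None of the following genes was called on genotype alone, and their sign turned. Centring on the array median gave -0.036 for Ppn and -0.035 for bowl, and ribosomal and proteasome centring gave 0.028 for dve and 0.012 for serp. Array weights gave -0.13 for Ppn, -0.068 for apolpp and 0.20 for Hph. Without both replicate 2 arrays, with or without the block, the values were -0.066 for Ppn, -0.050 for apolpp, 0.013 for serp and 0.012 for crq. Without 1 array the ranges were -0.24 to 0.20 for Ppn, -0.16 to 0.18 for bowl, -0.43 to 0.50 for apolpp, -1.09 to 0.12 for Apoltp, -0.12 to 0.22 for NO66, -0.12 to 0.081 for dve, -0.37 to 0.039 for Sr-CI, -0.11 to 0.027 for serp, -0.69 to 0.32 for Hph, -0.056 to 0.17 for NimC1 and -0.75 to 0.26 for LanA. The planned search for relatives by protein sequence, with its stricter limit, and the motif searches were not run. With 3 arrays per genotype and PH4alphaNE2 and PH4alphaNE3 at the level of the Tag controls, changes of these dim members could not be measured.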
